A study of Mus musculus with 38 samples.

Results

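Transcripts of 10 secreted acute-phase and complement proteins were followed in cells sorted from mouse mammary tumors and from lungs. The acute-phase genes were haptoglobin (Hp), lipocalin 2 (Lcn2), serum amyloid A1, A2 and A3 (Saa1, Saa2, Saa3), orosomucoid 1 and 2 (Orm1, Orm2) and ceruloplasmin (Cp). The complement genes were complement C3 (C3) and complement factor B (Cfb). All were read from 12 probes and are 10 of the 28786 gene names on the array. They were chosen by the measured difference of Hp between carcinoma and adenoma, the largest rise in that comparison, and the other genes were added as secreted proteins of the same class. The carcinoma minus adenoma values are therefore a description, with no test for any of these genes, and Hp was tested in no comparison that holds adenoma or carcinoma samples. The remaining progression tests on the other 9 genes share samples with that contrast, whereas the chemotherapy samples took no part in the choice.

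All samples came from a transplant model on the FVB/n background. Hyperplasias from bitransgenic MMTV-PyMT;actin-GFP mice were grafted into cleared mammary fat pads of FVB/n hosts, and GFP-positive cells were sorted from the outgrowths or from host lungs. The MMTV promoter drives the polyoma middle T antigen, while the actin promoter marks any cell of donor origin, so the gate does not by itself separate tumor epithelium from other donor cells. The progression experiment held 5 adenoma samples from younger outgrowths, 6 carcinoma samples from advanced outgrowths, 6 samples of disseminated cells from lungs of mice that still carried their tumors, with lungs of several mice pooled, and 5 samples of metastases from lungs collected after the primary tumor had been removed. The chemotherapy experiment held 6 untreated samples (labelled Control), 6 residual samples (labelled Regressed tumor) taken after the first dose and 4 relapsed samples (labelled Resistant tumor) taken after the fourth dose. Treatment combined docetaxel, doxorubicin and cyclophosphamide and began 2 months after transplantation. Each of the 38 arrays set 1 sample, in Cy5, against a pooled mouse reference RNA, in Cy3. The progression RNA was amplified in 2 rounds and the chemotherapy RNA in 1, so the experiments were not compared with each other. The labels do not say whether replicates of a group came from separate animals, and p-values then measure only the spread between these samples.

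Acute-phase proteins are plasma proteins whose output changes during inflammation, mostly in the liver, under the control of interleukin 6 through Stat3 and of interleukin 1 and tumor necrosis factor through NF-kB and C/EBP factors. Many of them are also made by epithelia and myeloid cells. C3 is the protein at which the activation routes of complement meet, and factor B supplies the protease of the alternative pathway convertase.

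Promoter windows of C3, Lcn2, Saa1 and Saa2 are printed: C3, Lcn2 and Saa2 are the genes called below that have an entry, and Saa1 is the neighbour and near copy of Saa2. They come from RefSeq on build GRCm38.p6, end at the last base before the annotated start and are written 5′ to 3′ on the strand of the gene. Capitals mark matches to the C/EBP motif TTNNGNAA on either strand. C3 lies at chr17:57228137-57228386 on the minus strand, Lcn2 at chr2:32387740-32387989 on the minus strand, Saa1 at chr7:46742981-46743230 on the minus strand and Saa2 at chr7:46751583-46751832 on the plus strand.
C3: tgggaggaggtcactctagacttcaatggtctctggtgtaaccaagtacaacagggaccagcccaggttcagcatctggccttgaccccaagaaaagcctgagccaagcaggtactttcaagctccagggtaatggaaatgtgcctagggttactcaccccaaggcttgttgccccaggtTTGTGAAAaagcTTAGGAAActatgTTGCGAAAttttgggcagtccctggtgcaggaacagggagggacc
Lcn2: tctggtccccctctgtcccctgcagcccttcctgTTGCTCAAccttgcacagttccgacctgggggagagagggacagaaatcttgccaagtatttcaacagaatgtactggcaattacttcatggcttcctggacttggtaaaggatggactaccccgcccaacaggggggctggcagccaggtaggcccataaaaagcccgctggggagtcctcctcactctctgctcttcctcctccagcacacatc
Saa1: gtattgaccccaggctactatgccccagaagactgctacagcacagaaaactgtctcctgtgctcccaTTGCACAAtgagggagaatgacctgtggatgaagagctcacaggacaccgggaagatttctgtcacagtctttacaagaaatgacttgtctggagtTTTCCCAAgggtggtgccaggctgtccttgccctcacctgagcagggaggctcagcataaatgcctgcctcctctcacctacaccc
Saa2: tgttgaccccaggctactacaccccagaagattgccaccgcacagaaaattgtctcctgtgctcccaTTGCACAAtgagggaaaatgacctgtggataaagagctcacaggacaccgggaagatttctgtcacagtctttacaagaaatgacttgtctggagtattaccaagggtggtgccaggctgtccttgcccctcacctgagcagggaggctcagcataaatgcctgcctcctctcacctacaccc
The C3 window held 3 matches within its last 70 bases, Saa1 held 2, and Lcn2 and Saa2 held 1 each. The same motif was found in 36.8% of 32851 promoter windows of this length, so a match is common. Windows were at hand for 7 of the 10 genes, and each held at least 1 match, the most being 4 in Saa3. Neither the STAT motif TTCNNNGAA, present in 7.02% of all windows, nor the NF-kB motif, GGG and TTTCC separated by 2 free bases and present in 1.41%, was found in any of the 7 on either strand, which says only that these letters are not in these windows. The Saa1 and Saa2 windows were identical at 238 of 251 aligned columns (94.8%). The coding parts of Saa1 and Saa2, and of Orm1 and Orm2, are near-identical paralogs as well, and the probe of Saa3 is annotated to the Saa1 transcript too, so the values of these 5 genes are uncertain as to which copy hybridized.

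All 10 genes were well above background in the sample channel on all 22 progression arrays, as called by the scanner software, and none was saturated there. Saturation of the reference channel was not examined, and the C3 probe used had the highest mean log2 signal of these genes, 15.38. In the chemotherapy experiment Orm1 was well above background on 1 untreated, 1 residual and no relapsed array, and Orm2 on 3, 4 and 3 arrays of these groups. Some progression libraries stood apart. Carcinoma replicate 6 correlated with the rest of its group at a median of 0.76, and its summed macrophage marker level was 5.33 on the log2 scale, against at most 0.38 in the other 5 carcinoma samples. Disseminated samples correlated with each other at medians of 0.71 to 0.851 and metastases at 0.776 to 0.889. Metastases replicate 4 had the lowest level of luminal mammary epithelium markers in its group, -1.78, against a group median of 2.77. Carcinoma and metastases shared slides and a scan day, and adenoma and disseminated cells shared others, so between these pairs of groups slide, scan day and group cannot be told apart.

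Values below are log2 ratios of sample to reference, where 0 is the level in the reference RNA. They compare a gene between samples and do not rank genes. A gene was called changed when limma gave an adjusted p below 0.05 over all 28786 genes and a log2 difference of at least 1. In bulk RNA, fewer cells of a type and less RNA per cell cannot be told apart.

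**Figure D1:**
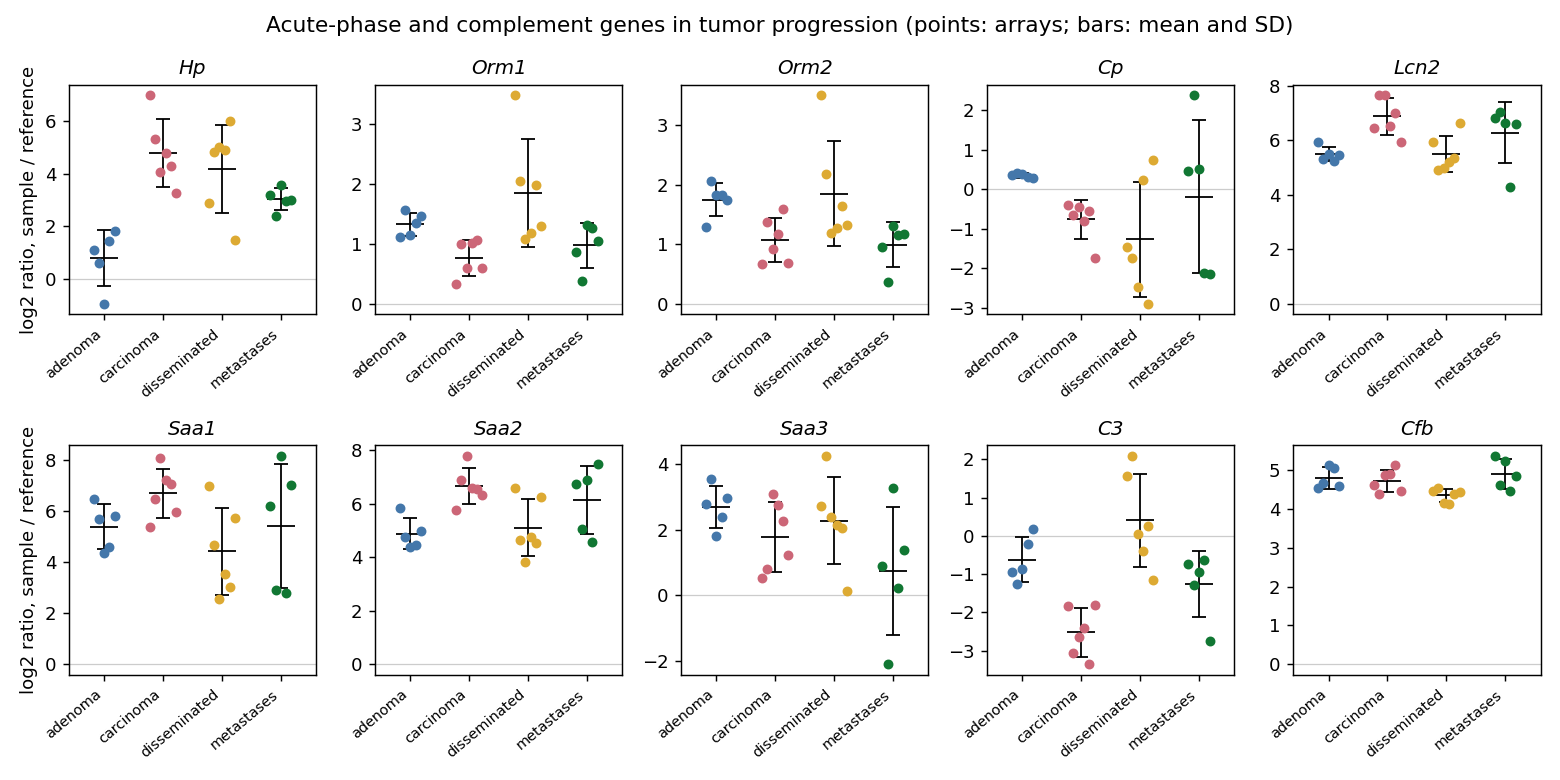
Log2 ratio of sample to reference (vertical axis) of each of the 10 genes in the 4 progression groups, 1 point per array, with the group mean and SD. Hp runs from -0.95 to 1.82 in adenoma and from 3.27 to 7.0 in carcinoma, and C3 is lowest in carcinoma and highest in disseminated cells.

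Hp binds free hemoglobin in plasma. Its log2 ratio was 1.09, 0.62, -0.95, 1.44 and 1.82 in the 5 adenoma samples, with a mean of 0.80 ± 1.07 (SD, n = 5). The 6 carcinoma samples ranged from 3.27 to 7.0, with a median of 4.53 and a mean of 4.80 ± 1.28 (SD, n = 6). No carcinoma sample overlapped the adenoma range, which follows from how the gene was chosen. Disseminated cells ranged from 1.49 to 6.03 around a median of 4.87, with a mean of 4.19 ± 1.67 (SD, n = 6). The 5 metastases lay at 3.20, 2.40, 3.57, 2.98 and 3.01, with a mean of 3.03 ± 0.42 (SD, n = 5), the narrowest spread of the 4 groups. By mean the order was adenoma, metastases, disseminated cells and carcinoma. Metastases and disseminated cells, neighbours in that order, differed by -1.16 ± 0.71 (SE), which did not pass the test (adjusted p = 0.321). Disseminated cells and carcinoma differed by -0.60, less than the SD of either group, and this was not tested. All 5 metastases lay above all 5 adenomas, at a difference of 2.23. The adenoma values also served to choose Hp, so nothing is read from this.

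Lcn2, also called neutrophil gelatinase-associated lipocalin, sequesters iron-loaded bacterial siderophores. In adenoma its log2 ratio was 5.93, 5.32, 5.49, 5.25 and 5.47. Carcinoma ranged from 5.95 to 7.66 with a median of 6.78, and disseminated cells from 4.91 to 6.63 with a median of 5.29. The carcinoma samples did not overlap the adenoma samples (a mean difference of 1.39, 2.62-fold), while 4 of the 6 disseminated samples lay below every carcinoma sample. Lcn2 fell from carcinoma to disseminated cells by 1.37 ± 0.41 (SE) on the log2 scale, a ratio of 2.58-fold (adjusted p = 0.0183). The call was lost without normalization between arrays (-0.86, adjusted p = 0.0621) and with the deposited ratios (-0.96, below the log2 limit of 1). Metastases were split, with 6.82, 7.03, 6.66 and 6.61 in 4 samples and 4.30 in replicate 4. Their difference from disseminated cells was 0.77, and no call was made.

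The comparison of disseminated cells with carcinoma held most of the calls. It sets GFP-positive cells sorted from lungs against those of the advanced primary tumor, and markers of other cell types, given below, differed between them. Of the 9 genes tested, 4 were called, where 11.6% of all genes were called. C3 and Orm1 rose, where 5.5% of all genes were called higher, and Lcn2 and Saa2 fell, where 6.07% were called lower. The median difference of the 10 genes was -0.441, and that of all genes -0.0664. This comparison crosses slides and scan days, and these cannot be told apart from the groups.

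The serum amyloid A proteins are apolipoproteins of high-density lipoprotein in inflammation. Saa2 measured 5.86, 4.76, 4.37, 4.46 and 5.0 in adenoma. It ranged from 5.79 to 7.80 in carcinoma, with a median of 6.58, and from 3.84 to 6.60 in disseminated cells, with a median of 4.70. Again 4 of 6 disseminated samples lay below all carcinoma samples, and the other 2, replicates 1 and 6, reached 6.60 and 6.27. Saa2 fell from carcinoma to disseminated cells by 1.55 ± 0.52 (SE) on the log2 scale, a ratio of 2.94-fold (adjusted p = 0.0320). The call was lost when any 1 of 8 samples, carcinoma or disseminated replicates 2, 3, 4 and 5, was left out (adjusted p = 0.0503 to 0.082). Saa1 averaged 6.71 ± 0.96 (SD, n = 6) in carcinoma and 4.43 ± 1.71 (SD, n = 6) in disseminated cells, a difference of -2.27 ± 0.88 (SE) that missed the threshold (adjusted p = 0.063). Its second probe gave -1.18. In adenoma Saa1 averaged 5.40 ± 0.88 (SD, n = 5), which put carcinoma 1.30 above adenoma for Saa1 and 1.77 above for Saa2.

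Metastases spread widely for all 3 serum amyloid genes. Saa1 measured 6.20, 2.92, 8.19, 2.80 and 7.03, and Saa2 measured 6.75, 5.04, 6.90, 4.55 and 7.47 in the same order of samples. Saa3 measured 0.89, -2.11, 3.28, 0.22 and 1.37. Replicates 2 and 4 were the 2 lowest for each of these genes. Saa3, the form best known from macrophages and adipose tissue, had mean log2 ratios of 2.70 ± 0.64 (SD, n = 5) in adenoma, 1.78 ± 1.07 (SD, n = 6) in carcinoma, 2.28 ± 1.33 (SD, n = 6) in disseminated cells and 0.73 ± 1.95 (SD, n = 5) in metastases. No Saa3 difference was called, and the nearest was metastases minus adenoma (-1.97, adjusted p = 0.0704).

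Orm1 and Orm2 encode alpha-1-acid glycoproteins, plasma carriers of basic drugs and lipids. Orm1 measured 1.11, 1.56, 1.15, 1.35 and 1.47 in adenoma and ranged from 0.32 to 1.07 in carcinoma, with a median of 0.80. Disseminated cells ranged from 1.08 to 3.49, with a median of 1.65. Neither adenoma nor disseminated samples overlapped carcinoma, although the closest disseminated and carcinoma samples differed only at the second decimal. The probes of Orm1 and Orm2 were the dimmest of those used, with mean log2 signals of 7.92 and 8.33 over the progression arrays. Orm1 rose from carcinoma to disseminated cells by 1.08 ± 0.30 (SE), or 2.12-fold (adjusted p = 0.0116). Disseminated replicate 1 was the highest sample for both genes, at 3.49 for Orm1 and 3.50 for Orm2, and without it the Orm1 difference was 0.76, below the log2 limit of 1 (adjusted p = 0.0120). Without carcinoma replicate 1 it was 0.996 (adjusted p = 0.0301). Orm2 differed from carcinoma in the same comparison by 0.78 (adjusted p = 0.0661). Metastases averaged 0.97 ± 0.37 (SD, n = 5) for Orm1 and 0.99 ± 0.38 (SD, n = 5) for Orm2, close to the carcinoma means of 0.77 ± 0.30 and 1.07 ± 0.38 (SD, n = 6).

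Cp carries copper and oxidizes iron. Adenoma samples were tightly grouped at 0.35, 0.42, 0.38, 0.30 and 0.29. Carcinoma lay lower throughout, from -1.73 to -0.39 around a median of -0.61, a difference of -1.11. Disseminated cells ranged from -2.90 to 0.74 and metastases from -2.15 to 2.37, so both groups taken from the lung covered the whole adenoma and carcinoma range. No Cp difference was called, the lowest adjusted p among the tested progression comparisons being 0.112 for disseminated cells minus adenoma (-1.62).

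C3 showed the largest called difference of these genes. In adenoma it measured -0.95, -1.27, -0.86, -0.22 and 0.19. Carcinoma ranged from -3.36 to -1.80 around a median of -2.53, and disseminated cells from -1.16 to 2.10 around a median of 0.16. The 6 carcinoma samples lay below every adenoma sample and every disseminated sample. C3 rose from carcinoma to disseminated cells by 2.92 ± 0.49 (SE), or 7.58-fold (adjusted p = 0.000367), and the call held with each sample of the experiment left out in turn (2.58 to 3.24). Without carcinoma replicate 6, the sample with high macrophage markers, the difference was 3.07 (adjusted p = 0.000217). Carcinoma lay below adenoma by 1.89 on the log2 scale, with means of -2.52 ± 0.64 (SD, n = 6) and -0.62 ± 0.59 (SD, n = 5).

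Metastases measured -0.73, -1.27, -0.93, -0.62 and -2.75 for C3, between carcinoma and disseminated cells. From disseminated cells to metastases C3 fell by 1.67 ± 0.51 (SE) on the log2 scale, a ratio of 3.18-fold (adjusted p = 0.0352), the only call among the 10 genes in a comparison where 7.12% of all genes were called. Both groups came from lungs but were hybridized on different slides and days. The call was lost without any 1 of disseminated replicates 1, 2 and 3 or metastases replicates 2, 3 and 5 (-1.30 to -1.75, adjusted p = 0.0529 to 0.106). Metastases stood 1.25 ± 0.51 (SE) above carcinoma, which missed the threshold (adjusted p = 0.0846), although the difference was positive on each of the 3 slides that held both groups (1.55, 0.90 and 1.30). With slide as a block it was 1.25 (adjusted p = 0.108). By mean, C3 ran in the order carcinoma, metastases, adenoma and disseminated cells. Of the neighbours in that order, metastases and adenoma differed by -0.64 and adenoma and disseminated cells by 1.03 (adjusted p = 0.162), neither called.

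The C3 values come from a probe at chr17:55414567-55414626 on build mm7, minus strand, printed as 10 spots per array. A second C3 probe at chr17:55435522-55435679 did not follow it, with differences of -0.28 for disseminated cells minus carcinoma and 0.06 for metastases minus disseminated cells. That probe was well above background on 21 of 22 progression arrays and 7 of 16 chemotherapy arrays. With both probes averaged, the rise from carcinoma to disseminated cells was 1.32 and still called, while the fall to metastases was -0.80 and was not.

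Cfb was the steadiest of the genes. Its log2 ratio averaged 4.79 ± 0.28 (SD, n = 5) in adenoma, 4.73 ± 0.29 (SD, n = 6) in carcinoma, 4.35 ± 0.17 (SD, n = 6) in disseminated cells and 4.91 ± 0.38 (SD, n = 5) in metastases. Disseminated cells were lowest, with 4.13 to 4.54. The difference of metastases from disseminated cells was 0.56 ± 0.17 (SE), with an adjusted p of 0.0343, but its size stayed below the log2 limit. C3, read from its brighter probe, and Cfb are partners in the alternative pathway. Their differences had opposite signs in disseminated cells minus carcinoma (2.92 and -0.38) and in metastases minus disseminated cells (-1.67 and 0.56). Neither Cfb difference was called, and the second C3 probe gave -0.28 and 0.06, the same signs as Cfb.

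**Figure D2:**
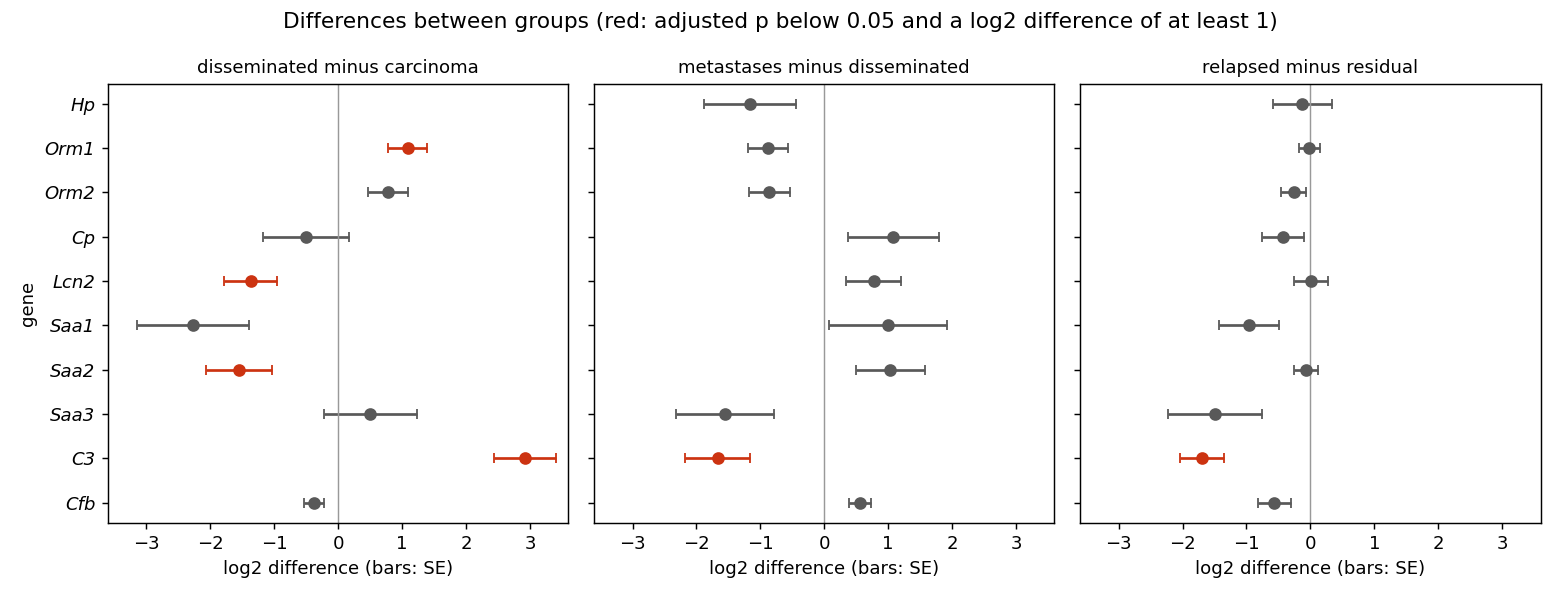
Log2 differences with their SE for the 10 genes (rows) in disseminated cells minus carcinoma, metastases minus disseminated cells and relapsed minus residual tumors, with called genes in red and Hp left out of the comparison in which it was not tested. C3 is called in all 3 panels, at 2.92, -1.67 and -1.70.

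The comparisons within shared slides gave no call among these genes. For disseminated cells minus adenoma, limma called 0 of 9 genes against 10.5% of all genes. For metastases minus carcinoma it called 0 of 9 against 10.1%. Metastases minus adenoma, which crosses slides and days, gave 0 of 9 against 14.6%. The equal-variance test without moderation made no call in these 3 comparisons either. In carcinoma minus adenoma, where 3.3% of all genes were called and 10.5% had groups that did not overlap, 5 of the 10 genes did not overlap: Hp and Lcn2 were higher in carcinoma and Orm1, Cp and C3 lower. Nothing is read from that count, since the comparison served to choose the genes. The share of all genes without overlap was not counted for the other comparisons.

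Markers of other cell types moved with the groups. Of 12 macrophage markers, 7 were well above background on all adenoma arrays, 10 on all carcinoma arrays, 11 on all disseminated arrays and 12 on all metastases arrays, and Cd163 was above background on no adenoma array. Their summed log2 level ran from -1.05 to 0.13 in adenoma, from -1.98 to 5.33 in carcinoma, from 3.59 to 5.54 in disseminated cells and from 1.05 to 5.12 in metastases. Macrophages make C3 and Saa3, and the part of these cells in the C3 values was not tested. Carcinoma replicate 6, with a macrophage level of 5.33, had a C3 value of -1.80, the upper end of a carcinoma range from -3.36. Replicate 1, with a macrophage level of 0.38, had -1.82, and nothing is read from these single arrays. The 11 neutrophil markers measured, which do not include Lcn2, summed to 5.38 to 6.24 in carcinoma and 6.03 to 7.16 in disseminated cells. From carcinoma to disseminated cells, 8 of these 11 were called higher and 0 lower (median difference 2.52). Of the 12 macrophage markers, 9 were called higher and 0 lower (median 3.57), where 5.5% of all genes were called higher. The 12 markers of luminal mammary epithelium summed to 2.26 to 3.28 in adenoma, 1.60 to 4.20 in carcinoma, -1.69 to 2.93 in disseminated cells and -1.78 to 4.07 in metastases, and 10 or 11 of them were well above background on all arrays of each group. From carcinoma to disseminated cells, 0 of these 12 markers were called higher and 3 lower, and 1 of the 12 lay higher (median difference -1.41). Their part in the Lcn2 and Saa2 falls was not tested. Of 11 hepatocyte markers, 2 were well above background on all adenoma arrays and 5 on all arrays of each other group, while Apoa2, Ttr and Cyp2e1 were so on no progression array, and 1 was called higher in disseminated cells than in carcinoma. Their summed level ran from 0.42 to 0.96 in adenoma, 0.49 to 0.97 in carcinoma, 0.83 to 1.94 in disseminated cells and 0.44 to 0.72 in metastases. In the same comparison of disseminated cells with carcinoma, 7 of 12 lung epithelium markers were called higher and 1 lower (median difference 1.9), 3 of 8 endothelium markers higher (median 0.863) and 4 of 9 T and NK cell markers higher (median 1.09). The summed lung epithelium level ran from 2.94 to 4.18 in carcinoma and 2.79 to 4.46 in disseminated cells, with Nkx2-1 above background on no carcinoma array, the endothelium level from 0.31 to 1.66 and 1.75 to 4.06, and the T and NK cell level from -0.44 to 0.10 and -0.06 to 2.72. Of 10 fibroblast markers, 9 lay higher in disseminated cells than in carcinoma (median 0.439), with 0 called higher and 1 lower. Of 10 adipocyte markers, 4 were called higher and 1 lower (median 0.0877). The fibroblast level ran from -3.92 to -2.02 in adenoma and -5.03 to -3.37 in carcinoma. It was -5.37 to -1.47 in disseminated cells and -5.915 to -3.335 in metastases. The adipocyte level ran from 0.98 to 2.56 in carcinoma and 1.72 to 3.21 in disseminated cells. The part of any of these cell types in the differences of the 10 genes was not tested.

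**Figure D3:**
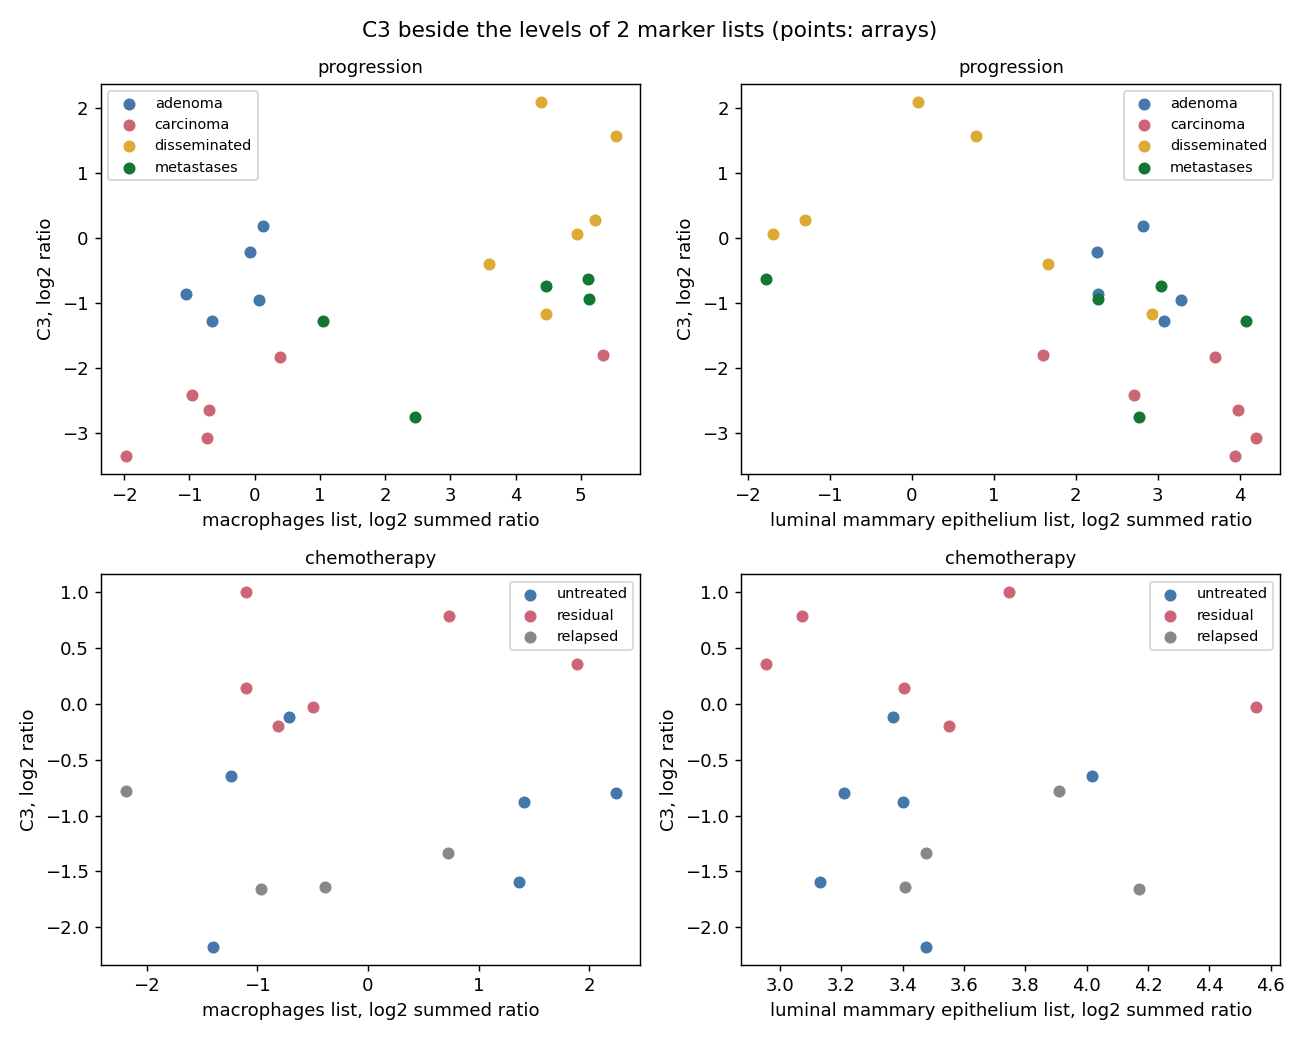
C3 log2 ratio (vertical axis) against the summed log2 level of 12 macrophage markers and of 12 luminal mammary epithelium markers (horizontal axes), 1 point per array, colored by group. Disseminated cells lie to the right for macrophage markers, and carcinoma replicate 6 lies among them at 5.33, with a C3 value of -1.80.

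Cytokines that induce the acute-phase response were higher in cells taken from the lung. Among 9 inducing cytokines measured, 6 rose from adenoma to disseminated cells and none fell (median difference 2.44, all genes -0.00897), 5 rose from carcinoma to disseminated cells (median 1.24), 3 rose from carcinoma to metastases (median 1.09) and 6 from adenoma to metastases (median 2.28). In these comparisons 10.5%, 11.6%, 10.1% and 14.6% of all genes were called, in either direction. Il6, the main inducer in hepatocytes, averaged 0.17 ± 1.0 (SD, n = 5) in adenoma, 1.89 ± 1.62 (SD, n = 6) in carcinoma, 5.04 ± 1.49 (SD, n = 6) in disseminated cells and 4.40 ± 1.17 (SD, n = 5) in metastases. It rose from carcinoma to disseminated cells by 3.15 ± 0.75 (SE, adjusted p = 0.00473) and from carcinoma to metastases by 2.51 ± 0.79 (SE, adjusted p = 0.0278). Il1b rose from adenoma to disseminated cells by 4.03 (adjusted p = 0.00432) and from carcinoma to disseminated cells by 3.46 (adjusted p = 0.00512). Il1a was above background on no adenoma array and on all 6 disseminated and all 5 metastases arrays, and it was called higher in both groups than in adenoma (adjusted p = 0.00126 and 0.00108); no fold is given, since its adenoma level is only bounded. Cxcl1, a neutrophil chemoattractant, rose from adenoma to metastases by 4.22 (adjusted p = 0.000831). Between metastases and disseminated cells Il6 differed by -0.64 (adjusted p = 0.665), and only Il11 was called in this list, 1.11 higher in metastases (adjusted p = 0.00362). The same myeloid markers that rose in these groups stand beside the cytokine values, and their part was not tested.

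Of 22 receptors and signal transducers, 7 rose and 1 fell from adenoma to disseminated cells, 4 rose and 1 fell from carcinoma to disseminated cells, and 5 rose from carcinoma to metastases, where 10.5%, 11.6% and 10.1% of all genes were called in either direction. Stat3, which relays the Il6 signal, was called in no tested comparison, and its largest difference was -0.80 for metastases minus carcinoma (adjusted p = 0.0372). Cebpb, a C/EBP factor, rose from adenoma to disseminated cells by 1.94 (adjusted p = 0.00996) and to metastases by 1.84 (adjusted p = 0.0116), but differed by 0.04 between disseminated cells and carcinoma (adjusted p = 0.962). Cebpd fell from carcinoma to disseminated cells by 2.06 on the log2 scale (adjusted p = 0.0141). Socs3, the feedback inhibitor of Stat3 signaling, rose by 2.10 from adenoma to disseminated cells (adjusted p = 0.017) and by 1.79 from carcinoma to metastases (adjusted p = 0.0346). Jak2 and the interleukin 1 coreceptor Il1rap rose from carcinoma to disseminated cells, by 2.27 and 2.04. From disseminated cells to metastases Jak1 fell by 1.63 on the log2 scale (adjusted p = 4.33e-05) and Irf1 rose by 1.34 (adjusted p = 0.000638).

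Other acute-phase proteins moved in both directions. Of 31 measured, 4 rose and 4 fell from carcinoma to disseminated cells, with a median difference of -0.00445, where 5.5% of all genes were called higher and 6.07% lower. Fgg, the fibrinogen gamma chain, fell by 2.70 on the log2 scale (adjusted p = 0.00146), and the serpin Serpina3g rose by 4.45 (adjusted p = 0.000151). Il1rn, the interleukin 1 receptor antagonist, rose by 3.51 from carcinoma to disseminated cells (adjusted p = 0.00295) and by 3.82 from carcinoma to metastases (adjusted p = 0.00305). Fgg was also lower in metastases than in carcinoma, by 2.42 on the log2 scale (adjusted p = 0.00541). The metallothioneins Mt1 and Mt2 moved apart from disseminated cells to metastases, with differences of -1.69 (adjusted p = 0.0413) and 2.45 (adjusted p = 0.013).

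Among the rest of the complement system, 22 early and terminal components and 21 regulators and receptors were measured. From carcinoma to disseminated cells, the first list had 2 higher and 1 lower and the second 7 higher and 4 lower, where 11.6% of all genes were called, so the share of the first list lies near that of all genes. Hc, which encodes C5, rose by 1.69 (adjusted p = 0.0079), C1ra, a protease of the C1 complex, rose by 1.37 (adjusted p = 0.0217), and C8g, a chain of the membrane attack complex, fell by 1.38 on the log2 scale (adjusted p = 0.000434). The receptors for cleaved C3 built from integrin chains Itgam, Itgax and Itgb2 rose by 3.04 (adjusted p = 0.00154), 3.20 (adjusted p = 0.00222) and 3.78 (adjusted p = 0.000325). These chains are carried by myeloid cells. C2, the classical pathway counterpart of Cfb, fell from adenoma by 1.83 on the log2 scale in disseminated cells (adjusted p = 0.00527) and by 1.87 in metastases (adjusted p = 0.00335). From disseminated cells to metastases C5ar2, a receptor for C5a, fell by 1.61 on the log2 scale (adjusted p = 0.0142) and Cr1l, an inhibitor of complement on cell membranes, rose by 1.63 (adjusted p = 0.0314).

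**Figure D4:**
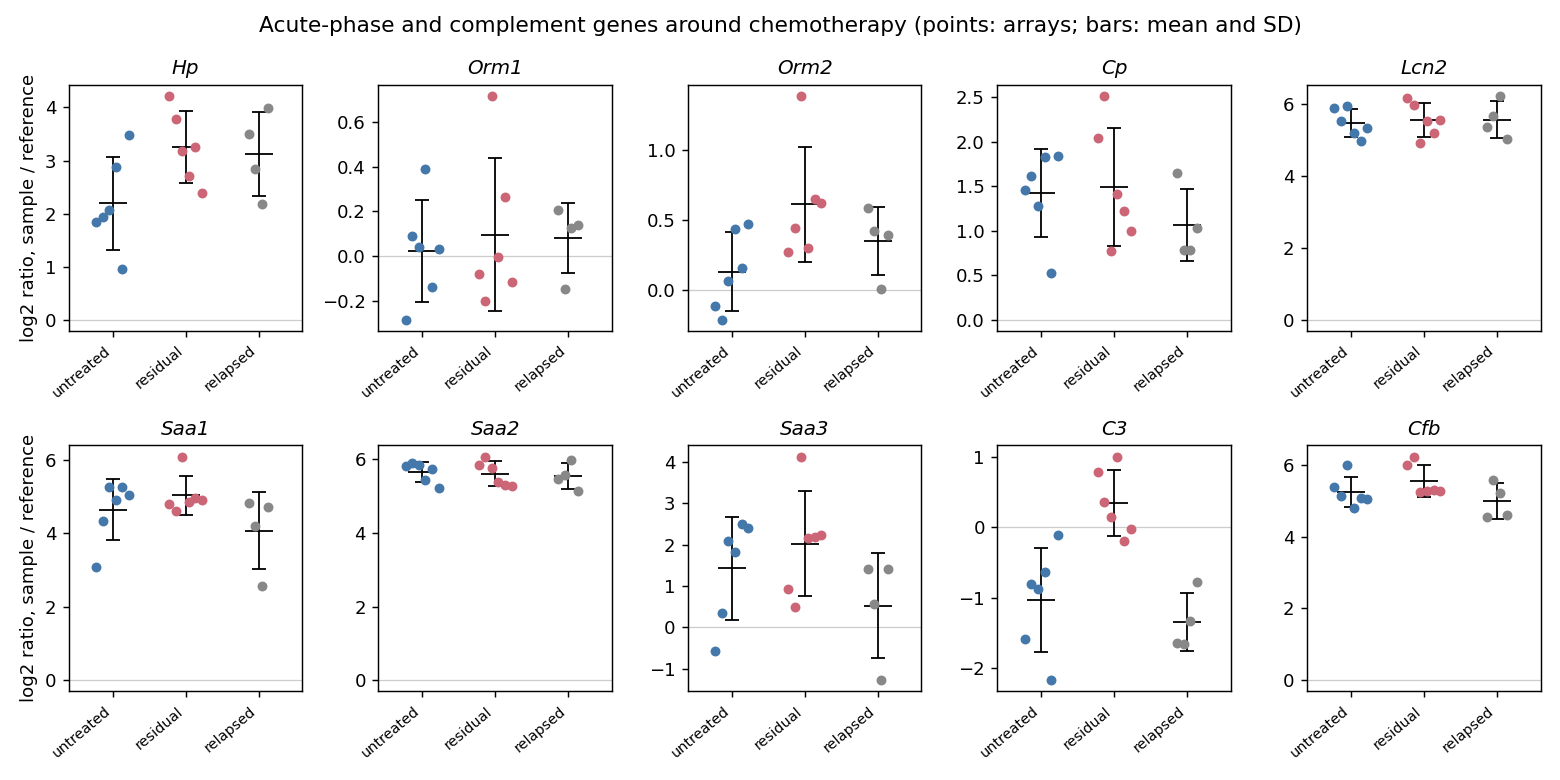
Log2 ratio of sample to reference (vertical axis) of each of the 10 genes in untreated, residual and relapsed tumors, 1 point per array, with the group mean and SD. The residual samples lie between -0.20 and 1.0 for C3, above all 4 relapsed samples (-1.66 to -0.78).

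After chemotherapy, C3 separated residual from relapsed tumors. Untreated samples ranged from -2.18 to -0.11 around a median of -0.84, residual samples from -0.20 to 1.0 around a median of 0.25, and the relapsed samples measured -1.64, -1.66, -1.34 and -0.78. All relapsed samples lay below all residual samples. C3 fell from residual to relapsed tumors by 1.70 ± 0.34 (SE) on the log2 scale, a ratio of 3.24-fold (adjusted p = 0.0492). It was the only call among 10 genes in a comparison where 0.212% of all genes were called. On the 1 slide that held both groups, with 2 relapsed arrays and 1 residual array, the difference was -1.62. With slide as a fixed block the difference was -2.12 and no longer called (adjusted p = 0.34), and the call was lost in 12 of the 16 fits that left out 1 array (-1.57 to -1.89, adjusted p = 0.0531 to 0.182), namely those without any 1 of the 4 relapsed samples, residual replicates 1, 2, 3, 4 and 6 or untreated replicates 2, 3 and 4.

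From untreated to residual tumors 5 of the 6 residual samples had a C3 value above every untreated sample. The difference was 1.38 ± 0.30 (SE), which missed the threshold (adjusted p = 0.0974). On the shared slide, with only 2 residual arrays and 1 untreated array, it was 2.17. Without untreated replicate 6, the highest untreated sample, the difference over all slides was 1.56 and called (adjusted p = 0.0405). Only 1 of the 16 fits that left out 1 array called it, and their adjusted p reached 0.213. Relapsed and untreated tumors differed by -0.32 (adjusted p = 0.93). The second C3 probe gave 0.28 for residual minus untreated and -0.36 for relapsed minus residual. Summed macrophage markers ran from -1.41 to 2.24 in untreated, -1.11 to 1.89 in residual and -2.19 to 0.72 in relapsed samples, with 8, 9 and 8 of the 12 markers above background on all arrays of these groups and Siglec1 on no untreated and no relapsed array. Their part in the C3 values was not tested.

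Hp ranged from 0.96 to 3.48 in untreated samples around a median of 2.00, and from 2.39 to 4.22 in residual samples around a median of 3.21. The relapsed samples measured 3.50, 2.84, 2.18 and 4.0. The groups overlapped throughout, with 2 residual samples above all untreated samples. Residual tumors stood 1.06 ± 0.41 (SE) above untreated tumors, which did not pass the adjustment (adjusted p = 0.44). Relapsed tumors stood 0.93 above untreated tumors (adjusted p = 0.678) and differed from residual tumors by -0.13 (adjusted p = 0.977).

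The other 8 genes gave no call in the chemotherapy experiment. Residual minus untreated gave 0 calls by limma among 10 genes, against 0.0938% of all genes called. In it 9 of 10 were higher (median difference 0.353, all genes -0.00378), but the share of all genes that were higher was not counted. Of the 9, Lcn2, Cp and Orm1 differed by only 0.09, 0.07 and 0.08, and nothing is read from the count. Relapsed minus untreated gave 0 calls, against 0.0104% of all genes. The equal-variance test also called none of the 10 in either comparison. Of all 28786 genes it called only 5 in residual minus untreated and 0 in relapsed minus untreated, so nothing is read from this. Lcn2 averaged 5.47, 5.56 and 5.57 in untreated, residual and relapsed samples, and Saa2 averaged 5.66, 5.61 and 5.55, the flattest profiles of the 10 apart from Orm1. Cfb averaged 5.23, 5.55 and 4.99, and Cp 1.42, 1.49 and 1.06. Residual replicate 3 was the highest residual sample for Saa1 (6.09), Saa3 (4.13), Orm1 (0.72) and Orm2 (1.39), and for no other gene of the set. Orm1, near background in these samples, averaged 0.02, 0.10 and 0.08.

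Among the inducers, Il6 differed by -0.58 (adjusted p = 0.738) and Il1b by -0.38 (adjusted p = 0.913) in residual minus untreated. In relapsed minus residual, 1 of 22 transducers and 1 of 31 other acute-phase proteins fell. They were Irf1, an interferon-induced transcription factor, by 1.64 on the log2 scale (adjusted p = 0.00371) and Serpina3g by 1.88 (adjusted p = 0.0184). Stat3 differed by -0.26 (adjusted p = 0.886) and Cebpb by -0.30 (adjusted p = 0.8).

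The genes whose pattern lay nearest to Hp were found by the root mean square difference of mean-centred log2 ratios over all arrays, among genes above background on every array. Over the 22 progression arrays and 11078 candidates, Slpi, a secreted protease inhibitor, was nearest at 1.15, followed by the niacin receptor Hcar2 (1.35), H6pd (1.36), Ankrd37 (1.36) and the beta globin Hbb-bt (1.39). Slpi averaged -1.43 ± 0.49 (SD, n = 5) in adenoma, 1.41 ± 1.13 (SD, n = 6) in carcinoma, 0.73 ± 1.57 (SD, n = 6) in disseminated cells and 0.33 ± 1.21 (SD, n = 5) in metastases. Its groups stood in the same order as those of Hp, which largely follows from choosing Slpi by its distance to Hp over these arrays. Among the other 9 genes of the set the closest was Lcn2, at 1.93 and rank 4409. The distance is not scaled to the spread of a gene, so a flat gene can rank ahead of one that varies. A rank therefore does not show a shared pattern. Over the 16 chemotherapy arrays and 10859 candidates the nearest were Trp53inp1 (0.607), Ephx1 (0.622), Cdkn1a (0.637), Lgr6 (0.649) and Pafah1b1 (0.649). Pafah1b1 was nearly flat, with means of -1.55, -1.43 and -1.48 in untreated, residual and relapsed tumors. Cdkn1a, the cell cycle inhibitor p21, had a mean log2 ratio of 0.14 ± 0.55 among untreated tumors, 1.66 ± 0.38 in residual tumors and 1.28 ± 0.73 at relapse (SD over 6, 6 and 4 samples). Cp was the closest of the other genes of the set, at 0.739 and rank 152. The 2 lists of nearest genes had no gene in common, and the likeness is a description over arrays that share groups.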

How the data were processed

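Scanner files of 38 Agilent 2-colour arrays were used, 22 for tumor progression and 16 for chemotherapy. The authors deposited spot intensity values from Agilent Feature Extraction 10.7, unnormalized, and a matrix of log2 ratios, corrected with normexp and normalized with loess by the authors, whose exact centring is not stated and whose columns have medians of 0.00472 to 0.0526; the matrix served as an alternative. Mean signals were corrected with normexp (offset 50), loess-normalized within arrays and quantile-normalized between arrays of an experiment with limma 3.58.1 in R 4.3.3. Spots of a probe were averaged, and each gene was read from its probe of highest mean signal. Of 41174 probes, 22951 were named through their accession and 18223 as in the array files. One limma model per experiment was fitted, with Benjamini-Hochberg adjustment over 28786 genes. The number of arrays limits the precision, and 48.4% to 78.9% of spots per array were above background in the sample channel. Named were the 10 genes, the 5 nearest to Hp, Il6, Il1b, Stat3, Cebpb and up to 3 called genes of largest change per list and comparison. The genes and lists were chosen with earlier results of these data known. The fits were tested on simulated data. Alternatives changed background correction, normalization, filter, probe rule, slide and replicate blocks, samples fitted and test.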

Additional observations from a re-analysis of the deposited data

Results flagged for a closer look

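Of 70 groups of member values that were large enough for Dixon's test, 4 held a sample set apart from the others. Chance flags about 1 in 20, and 4 of 70 lies near that share, so nothing is read from the number. Lcn2 in metastases replicate 4 was 4.30, below 6.61 to 7.03 in the other 4 metastases; the same sample had the lowest luminal marker level of its group. Cp in carcinoma replicate 6 was -1.73, below -0.808 to -0.39 in the other 5; this sample had the highest macrophage marker level of its group. In residual replicate 3, Saa1 was 6.09 against 4.59 to 4.95 in the other 5, and Orm2 was 1.39 against 0.272 to 0.648. No cause was tested for any of the 4.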

How the results depend on the processing

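Of 90 pairs of a gene and a comparison, 23 changed sign under at least 1 alternative, the largest of them at an absolute log2 difference of 0.577. The call of C3 in disseminated cells minus carcinoma held under all alternatives run. The 4 calls there became 2 under Aquantile or no normalization between arrays (C3 and Orm1) and 2 by the equal-variance test (C3 and Lcn2), and with the deposited ratios Lcn2 was lost and Saa1 gained. The call in metastases minus disseminated cells became 0 with the deposited ratios, the mean of all probes, only the 2 groups compared or the equal-variance test. The call in relapsed minus residual became 0 with a normexp offset of 0, processed signals, slide as a fixed or random block and the equal-variance test. Metastases minus carcinoma gained 1 call (C3) with the deposited ratios or only the 2 groups compared, and metastases minus adenoma gained 1 (Saa2) with processed signals. The cause of these changes was not tested, except that averaging the C3 probes includes the one that did not follow. With 1 array left out, calls ranged from 3 to 5 for disseminated cells minus carcinoma, 0 to 2 for metastases minus disseminated cells and metastases minus adenoma, 0 to 1 for disseminated cells minus adenoma, metastases minus carcinoma, residual minus untreated and relapsed minus residual, and stayed at 0 for relapsed minus untreated. Pathway genes called, 125 in all, ranged from 110 to 153. The Hp difference of 3.99 between carcinoma and adenoma ranged from 3.55 to 4.30. Hp in relapsed minus residual ranged from -0.415 to 0.19, turning from -0.13 to 0.067 without residual replicate 1 and to 0.19 without relapsed replicate 3. Replicate numbers did not pair samples (same-number correlations from -0.414 to 0.423), and the fit with the replicate block gave the same counts of 4, 1 and 1 calls, 0 elsewhere, and 119 for the pathway genes called. A fixed slide block could not be estimated for carcinoma minus adenoma, disseminated cells minus carcinoma, metastases minus disseminated cells or metastases minus adenoma, nor for the pathway total. Over all genes, calls in metastases minus disseminated cells fell from 2049 to 710 with only the 2 groups compared and 163 by the equal-variance test, in disseminated cells minus adenoma from 3015 to 1909 by that test, in relapsed minus residual from 61 to 33 with the fixed slide block and 25 by that test, and in residual minus untreated from 27 to 1 with the fixed slide block. The share of calls that were higher moved from 44.4% to 58.1% in disseminated cells minus adenoma and from 47.5% to 57.7% in disseminated cells minus carcinoma without normalization between arrays, and from 41.8% to 53.6% in metastases minus adenoma and 47.2% to 57.5% in metastases minus carcinoma with the deposited ratios.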
